A study of Mus musculus with 6 samples.

Results

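Open chromatin was examined around 8 genes of the NF-kB system in mouse thymus, namely the 5 subunit genes Nfkb1, Nfkb2, Rel, Rela and Relb and the 3 feedback genes Nfkbia, Tnfaip3 and Traf1. Members of this set were taken by name. Their chromatin was defined as every ATAC-seq peak summit from 50 kb before to 50 kb after the gene body, where ATAC-seq uses a transposase that cuts accessible DNA. Each summit was widened to 250 bp either side, and windows that overlapped across libraries became 1 region, which gave 119 regions near the 8 genes of 73702 regions in the genome. No region fell in the windows of more than 1 member.

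The series holds 6 thymus libraries, 3 from mice with the genotype p53 AD/- and 3 from mice with the genotype p53 -/- (p53-null). AD is an allele that the series describes as dimeric, where wild-type p53 binds DNA as a tetramer. Both groups carry germline p53 alterations with at least 1 null allele, on an even mix of the BALB/C and C57BL6 backgrounds, and were 4 weeks old. A library from mice with wild-type p53 is not analysed here, and the labels name thymus and no sort. The labels do not say that the libraries came from different mice, so the p-values measure the spread between these libraries, which may be technical.

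NF-kB proteins are dimeric transcription factors built from Rel-homology subunits. In resting cells they are held in the cytoplasm by inhibitors of the IκB family, and signals from T cell, TNF and Toll-like receptors activate kinases that cause the inhibitors to be degraded. The freed dimers bind κB sites and switch on, among other genes, their own inhibitors, which ends the response. In the thymus the pathway is known for thymocyte survival and selection and, through RelB, for the medullary epithelium.

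The libraries held 44492 to 60157 summits on chromosomes 1 to 19 and X. AD/- library 3 had the fewest and AD/- library 2 the most, and null library 2 had the highest median score, 77.3, against 24.6 to 36.2 in the other 5. The score of a summit is the authors' own value, read as −log10 of a q-value. It rises with depth, and read depth is unknown here. Scores are therefore given as percentiles within a library, with 100 at the top, and a difference of percentiles between lists of different length shows no change in openness. Marker genes were read at an annotated start, or at either gene end where no start was listed. By that measure 12 of 12 T cell markers had a summit within 1 kb in all 6 libraries. The same held for 2 of 7 B cell markers, 2 of 8 myeloid and dendritic markers, 3 of 7 thymic epithelial markers, 2 of 7 endothelial and mesenchymal markers and 1 of 5 erythroid markers. Among the markers counted, Cd4 and Cd8b1 (T cell), Cd79b, Spi1 and Cd83 were read at gene ends. So were Pdgfrb and Col1a1, the 2 of the endothelial and mesenchymal count. For these genes a summit need not be at the start. How far these other cell types contribute to the regions described here was not tested. In whole tissue, fewer cells with an open site and less signal per cell cannot be told apart.

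κB sites, the sequences that NF-kB dimers bind, were looked for in the promoters of the genes themselves. The 250 bases before each start were read from RefSeq (GRCm38.p6) and searched on both strands for the κB consensus, with overlapping matches joined. Of the 6 members in the table, 4 had a match before at least 1 start: Nfkb2, Rel, Nfkbia and Tnfaip3. Rela and Traf1 had none. Matches were found before 4.22% of 21044 promoters of protein-coding genes, and 4.88% of 17273 genes had one. The promoters with a match are shown so that their κB sites can be set beside the summits. They are written 5′ to 3′ on the strand of the gene, with the κB matches in capitals.
Rel, chr11:23770970-23771219, minus strand: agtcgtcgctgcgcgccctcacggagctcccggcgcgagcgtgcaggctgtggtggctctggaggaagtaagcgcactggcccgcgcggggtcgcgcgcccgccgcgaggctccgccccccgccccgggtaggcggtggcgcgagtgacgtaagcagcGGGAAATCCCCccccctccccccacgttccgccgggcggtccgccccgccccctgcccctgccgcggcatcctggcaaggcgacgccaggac
Nfkb2 first start, chr19:46304487-46304736, plus strand: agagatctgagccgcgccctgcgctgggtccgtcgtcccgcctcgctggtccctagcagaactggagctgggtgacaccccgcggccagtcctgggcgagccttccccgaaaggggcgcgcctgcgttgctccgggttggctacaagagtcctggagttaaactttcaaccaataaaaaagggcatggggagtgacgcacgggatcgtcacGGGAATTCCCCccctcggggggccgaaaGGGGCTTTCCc
Nfkb2 second start, chr19:46305445-46305694, plus strand: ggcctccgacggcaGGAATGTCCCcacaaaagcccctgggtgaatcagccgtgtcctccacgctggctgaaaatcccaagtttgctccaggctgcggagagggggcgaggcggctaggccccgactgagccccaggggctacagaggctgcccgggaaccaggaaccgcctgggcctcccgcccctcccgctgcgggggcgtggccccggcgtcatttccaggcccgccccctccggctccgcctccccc
Nfkb2 start 3, chr19:46305680-46305929, plus strand: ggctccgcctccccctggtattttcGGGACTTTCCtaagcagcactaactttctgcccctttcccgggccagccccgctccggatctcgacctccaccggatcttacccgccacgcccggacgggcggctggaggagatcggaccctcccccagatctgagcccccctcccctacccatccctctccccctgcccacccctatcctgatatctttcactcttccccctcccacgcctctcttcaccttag
Nfkbia, chr12:55492648-55492897, minus strand: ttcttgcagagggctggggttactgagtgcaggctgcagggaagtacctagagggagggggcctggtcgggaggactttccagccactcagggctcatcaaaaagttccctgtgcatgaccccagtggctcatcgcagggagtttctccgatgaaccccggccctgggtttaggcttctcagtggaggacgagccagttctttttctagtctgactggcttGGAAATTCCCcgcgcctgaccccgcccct
Tnfaip3 first start, chr10:19015411-19015660, minus strand: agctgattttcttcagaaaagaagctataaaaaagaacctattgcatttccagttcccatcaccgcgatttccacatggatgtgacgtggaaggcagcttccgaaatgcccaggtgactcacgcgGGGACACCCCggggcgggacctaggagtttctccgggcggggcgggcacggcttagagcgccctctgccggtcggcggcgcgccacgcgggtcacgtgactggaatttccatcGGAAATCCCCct

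The matches differ in their distance from the start. In Nfkbia the match ends 20 bases before the start, and in Rel it ends 82 bases before. The first start of Nfkb2 has a pair of matches, ending 29 and 2 bases before it, while the match at the second start lies 227 to 236 bases upstream. The third start of Nfkb2, 235 bp further on, has a match 216 to 225 bases upstream, just downstream of the second start. Tnfaip3 has a match 3 to 12 bases before its first start and another 116 to 125 bases before it. At least 2 separate matches were found before 0.176% of all promoters. The search covered the letters of these windows only, and a match is not a measured binding site. The p53 decamer, a unit of the response elements that p53 binds, had a match before 6.29% of all promoters and before none of the starts of these 6 genes. That says only that its letters are not in these windows.

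All 8 genes had a summit within 1 kb of an annotated start, or of an annotated gene end for Nfkb1 and Relb, in all 6 libraries. Over all 21627 protein-coding genes the same held for 54.3%. No member had a start with a summit in 3 libraries of one genotype and 0 of the other, which occurred in 5 genes (0.0231%) in the AD/- direction and in 6 (0.0277%) in the null direction. Fisher's exact test on 3 against 3 libraries cannot give a p below 0.10.

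**Figure D1:**
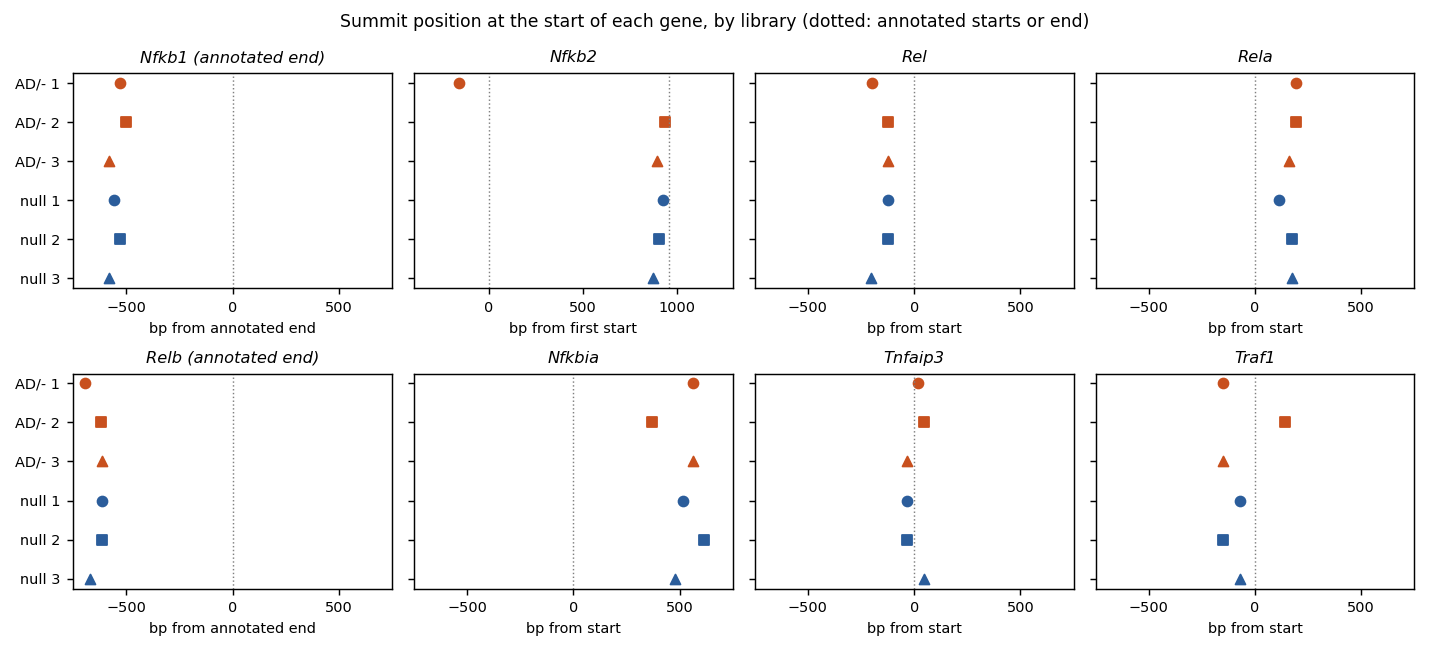
Summit positions (bp, x axis) at the start of each gene by library (y axis). Dotted lines mark the annotated starts with a summit near them, or the higher-coordinate gene end for Nfkb1 and Relb, and negative values lie upstream of a start or at lower coordinates than that end. The summit of AD/- library 1 at Nfkb2 lies at the first start and the other 5 lie near the second.

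Rel, which encodes c-Rel, a subunit abundant in lymphocytes, had the highest-scoring start of the 8 by median percentile, 96.7. In AD/- library 1 the region at the end of Relb was higher, at 96.3. The summit at the Rel start (GRCm38 chromosome 11) stood at percentiles of 95.3, 97.1 and 96.8 in AD/- libraries 1, 2 and 3 and at 96.7, 96.6 and 95.8 in the null libraries. The genotypes overlapped. In 4 libraries, AD/- 2 and 3 and null 1 and 2, the summit was on the same base, 122 bp before the start, and in AD/- library 1 and null library 3 it was 198 and 203 bp before it. The centre of the κB match printed above lay 35 to 116 bp from the summits.

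Around Rel, few other regions were found. The window of the gene, at chromosome 11 from 23736847 to 23770969, held 8 regions, of which 3 were found in all 6 libraries. One of the other shared regions lay inside the neighbouring gene Pus10, 36877 bp from the Rel gene body (distances from a gene are to the nearest summit of a region), with a median percentile of 45.4. The farthest upstream, 47943 bp before the gene, had a median of 34.2. The 3 partly shared regions, upstream of Rel at 23782215, 23802039 and 23806288, were each found in 2 AD/- and 2 null libraries and never in AD/- library 3.

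Nfkb2 encodes p100, the precursor of p52 and itself an inhibitor of RelB. Among the 8 starts, summit positions were spread farthest at Nfkb2. AD/- library 1 had its summit at position 46304577 on chromosome 19, 160 bp before the first start, at a percentile of 80.6. AD/- libraries 2 and 3 had it at 46305677 and 46305635, and null libraries 1, 2 and 3 at 46305666, 46305642 and 46305613, which is 18 to 82 bp before the second start. Percentiles there were 83.1 and 80.6 in AD/- and 82.1, 82.6 and 81.2 in null. The summit of AD/- library 1 was 1036 to 1100 bp from the others, so the shift was in 1 library and did not follow genotype. It lay 126 bp from the centre of the nearer κB match of the first start. The summits of the other libraries lay 150 to 214 bp from the match before the second start and 32 to 96 bp from the one before the third.

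Inside Nfkb2 a further region had its summit on the same base, 46309215, in all 6 libraries. Regions with a summit in all 6 libraries are called fully shared here. A single summit base was seen in 1 of the 72 fully shared regions near the 8 genes and in 1.73% of all 38374 fully shared regions. Its percentiles were 63.4, 67.8 and 54.9 in AD/- and 70.1, 70.8 and 69.1 in null, so the highest AD/- value was under the lowest null value. That order was seen in 5.55% of all fully shared regions. The window of Nfkb2, a gene at 46300994 to 46312400, held 14 regions, 8 of them found in all 6 libraries. The highest fully shared ones were at ends of the neighbours Cuedc2 (median percentile 89.8), Fbxl15 and Psd (88.2) and Mfsd13a (81.1).

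Rela, which encodes p65, the main activating subunit, was the only member whose regions were all found in every library. Its window, around the gene at chromosome 19 from 5637442 to 5648134, held 7 regions and all 7 were found in all 6 libraries. The summit at the start was 114 to 191 bp downstream of it, with percentiles of 93.7, 94.6 and 89.5 in AD/- and 88.7, 91.0 and 93.3 in null. The genotypes overlapped. A second region lay 765 bp beyond the end of the gene (median 84.2), and the highest of the window was at the shared ends of Map3k11 and Pcnx3 (95.3). With 5 other protein-coding genes in the window, 3 of the 7 regions were at the end of another gene.

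Relb encodes the partner of p52 in the noncanonical pathway. The summit lay 616 to 695 bp inside the higher-coordinate end of the gene (chromosome 7, 19606217 to 19629438). Its percentiles were 96.3, 97.0 and 95.0 in AD/- and 96.7, 93.5 and 94.7 in null, and the genotypes overlapped. The gene stands in a gene-dense stretch with 8 other protein-coding genes in its window, and 5 of its 11 regions were at an end of one of them, among them Clptm1 (median 93.4), Clasrp (91.8) and Gemin7 (83.3). At the Clasrp end, 1723 bp from Relb, percentiles were 91.6, 91.0 and 89.1 in AD/- and 93.2, 92.3 and 92.1 in null. Inside Clasrp, at 19590033, they were 55.3, 56.1 and 54.6 in AD/- and 56.6, 60.0 and 59.5 in null. In both regions the AD/- values were all under the null values, as in 5.55% of all fully shared regions. With only the best 44492 summits of each library, that order was kept at the Clasrp end and lost inside Clasrp. A single region lay deeper inside Relb, at 19619185 to 19619249 (median 54.9). A weak region at 19577590 to 19577614 was found in the 3 AD/- libraries, at percentiles of 16.6, 8.69 and 9.68, and in null library 2 at 13.4.

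Nfkb1 encodes p105, the precursor of p50, and is the longest of the 8 genes at 107315 bp (chromosome 3, 135584655 to 135691969). Its summit lay 503 to 581 bp inside the higher-coordinate end, at percentiles of 86.0, 87.2 and 84.1 in AD/- and 84.7, 83.7 and 87.9 in null. No separation by genotype was seen there. The window held 26 regions, 13 of them inside the gene and away from its ends, and 13 were found in all 6 libraries. The highest of the inner regions were at 135594301 (median 67.9), 135602971 (65.5) and 135607184 (61.9).

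One region inside Nfkb1, with summits at 135604808 to 135604872, was uneven across libraries. It was found in null libraries 1, 2 and 3 at percentiles of 47.4, 60.5 and 55.9 and in AD/- library 3 at 30.5, and not in AD/- libraries 1 and 2, whose lists were longer than that of AD/- library 3. Outside the gene, a region at 135731498 to 135731503, 39529 bp beyond the higher-coordinate end, stood at 70.3 to 80.4 in all 6 libraries, higher than any region within the gene other than the one at that end.

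Among the feedback genes, Nfkbia encodes IκBα, the inhibitor that is degraded and then resynthesised in the response. It is a short gene of 3239 bp (chromosome 12, 55489409 to 55492647) with no other protein-coding gene in its window. The window still held 16 regions, 10 of them found in all 6 libraries. The region at the start had its summits 368 to 613 bp downstream of it, within the gene, at percentiles of 87.1, 89.0 and 84.4 in AD/- and 83.8, 85.3 and 88.2 in null. The genotypes overlapped, and the summits lay 392 to 637 bp from the centre of the κB match.

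Downstream of Nfkbia was a row of shared regions. One lay 150 bp past the end of the gene (median percentile 72.3), a weaker one at 6449 bp (28.4), and others at distances of 15015 bp (61.3), 22773 bp (87.3), 24190 bp (70.7), 42241 bp (73.8) and 45001 bp (82.5). The region 22773 bp away thus had a median slightly above that of the start, 86.2. Its percentiles were 89.3, 86.9 and 82.8 in AD/- and 87.7, 88.3 and 85.4 in null. On the upstream side the strongest was 6586 bp before the gene, at 69.3 to 76.0. The highest of the partly shared regions, 46012 bp downstream, was found in AD/- libraries 1 and 2 at 40.6 and 38.3 and in null libraries 1 and 2 at 27.6 and 27.3.

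Tnfaip3 encodes A20, a ubiquitin-editing enzyme that ends signalling from TNF and T cell receptors. The summit at its first start (chromosome 10, gene from 19000910 to 19015410) was 17 and 47 bp downstream in AD/- libraries 1 and 2 and 47 bp downstream in null library 3, and 35 bp upstream in AD/- library 3 and null libraries 1 and 2. Percentiles were 88.5, 89.4 and 89.0 in AD/- and 89.3, 90.2 and 90.0 in null. The groups overlapped by a narrow margin, and all 6 summits lay 24 to 54 bp from the centre of the κB match beside the start. No summit lay within 1 kb of the second annotated start, 3447 bp further into the gene.

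The window of Tnfaip3 has no other protein-coding gene and held 13 regions, 8 found in all 6 libraries. The strongest away from the start stood at both edges. One was 46968 bp upstream (percentiles 82.8 to 88.9) and one 47463 bp downstream (86.2 to 89.2), and the other fully shared regions apart from the start had medians of 18.9 to 60.7. A partly shared region 17152 bp downstream was found in AD/- library 2 at 23.5 and in the null libraries at 14.3, 11.3 and 18.1. AD/- library 2, the longest list, alone had summits at 18967577, 19031225 and 19035726, at percentiles of 16.9, 1.94 and 2.26.

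Traf1 encodes an adaptor of TNF receptors that is induced by NF-kB and restrains or prolongs signalling depending on the receptor. Its annotated start was the lowest-scoring of the 8 starts. The summit there, at chromosome 2 from 34961633 to 34961923, stood at 46.2, 49.9 and 21.5 in AD/- and at 36.7, 31.2 and 51.0 in null, with genotypes overlapping and positions spread over 290 bp. A stronger region lay 1853 bp before the start at 34963625 to 34963719, at 92.4, 91.7 and 88.6 in AD/- and 92.6, 92.3 and 90.8 in null. The gene (34941750 to 34961812) had 24 regions in its window, 15 of them in all 6 libraries. The highest, with percentiles of 96.5 to 98.0, lay inside the neighbour Phf19, 36443 bp from Traf1. A partly shared region inside the gene, at 34958821 to 34958846, was missing in AD/- library 3 and stood at 32.7 to 52.3 in the other 5.

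**Figure D2:**
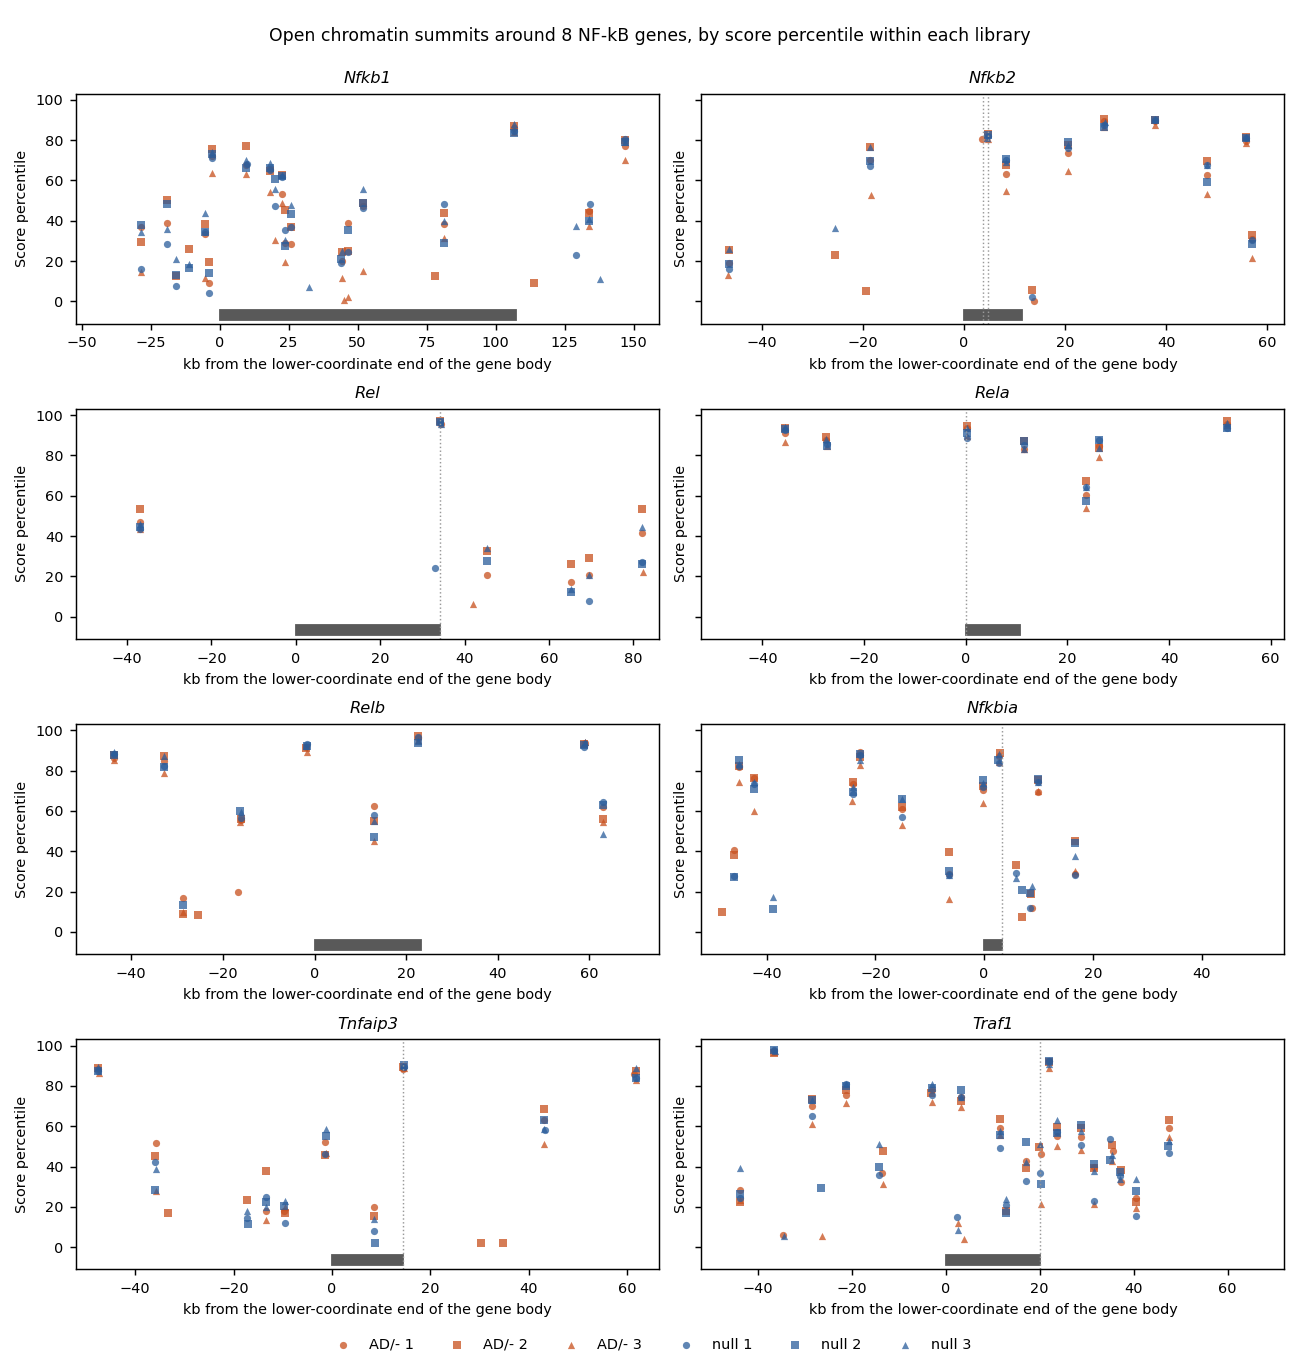
Score percentile within each library (y axis) of every summit in the 8 windows, against distance in kb from the lower-coordinate end of the gene body (x axis). The grey bar is the gene body, dotted lines are annotated starts with a summit near them, and colour and shape give the library. Summits of the 6 libraries stack at shared positions, and Traf1 and Nfkb1 have the most.

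The density of regions was then compared with that of all genes, measured the same way. Traf1 had 19.99 regions per 100 kb of window and Nfkbia 15.5, which placed them at the 99.3 and 95.5 percentile of all protein-coding genes. Nfkb2 (12.6), Nfkb1 (12.5), Tnfaip3 (11.4) and Relb (8.93) followed, and Rela (6.32) and Rel (5.96) were nearest the median of all genes, 4.89. Counting only regions found in all 6 libraries, Traf1 had 12.5 per 100 kb and Nfkbia 9.69, and Rel, at 2.24, was below the median of all genes, 2.71. Rela kept its 6.32 by that count, which placed it at the 81.6 percentile of all genes, against 45.2 for Rel. These ranks describe the 8 genes and were not tested.

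Sharing among libraries was read next. Of the 119 regions, 72 (60.5%) were fully shared, with a summit in all 6 libraries, compared with 52.1% of all regions and 53.02% of the 66144 regions within 50 kb of any protein-coding gene. A single library held 16 of them (13.4%, against 16.4% of all), of which 8 were in AD/- library 2. Those 16 had a median percentile of 8.77, those in 2 to 5 libraries 20.5 and those in all 6 libraries 69.2. The highest of the 16, at 80.6, was the Nfkb2 summit of AD/- library 1. AD/- library 3 alone lacked 6 regions that the other 5 shared, null library 3 lacked 2 and AD/- library 1 lacked 1. Over all 73702 regions these libraries alone lacked 5582, 286 and 467. The region that AD/- library 1 lacked was at the second start of Nfkb2, where its own summit lay 1036 bp from the nearest other.

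**Figure D3:**
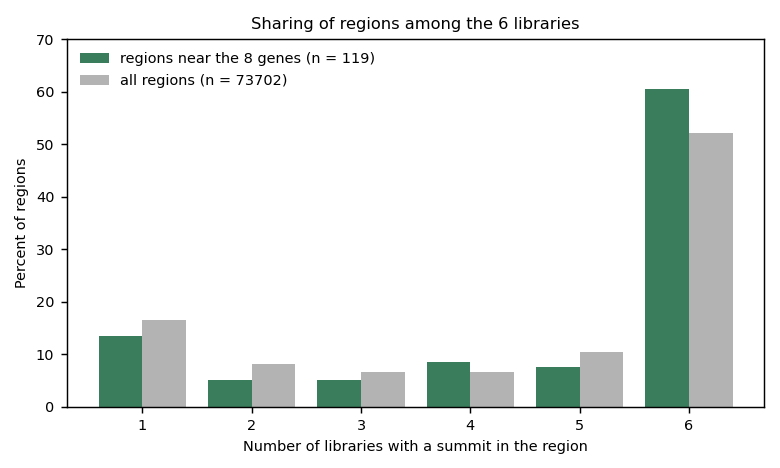
Percent of regions (y axis) by the number of libraries with a summit in the region (x axis), for the 119 regions near the 8 genes (green) and all 73702 regions (grey). The bar for 6 libraries is at 60.5% for the 8 genes and 52.1% for all regions.

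The scores of shared regions varied with their place. The 7 fully shared regions at a start or end of a member had a median percentile of 89.4, and the 10 at an end of another gene had 89.0. The 11 inside a member had 56.7, and the 44 that were outside the member and not at another gene end had 61.0.

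The genotypes were compared by the number of summits in each window. Traf1 had 19, 19 and 19 summits in AD/- and 20, 20 and 21 in null, the only member without overlap (difference −1.33; exact permutation p = 0.10, two-sided, the smallest that 3 against 3 allows, 1 after Benjamini-Hochberg adjustment over 17704 genes with a summit). Counts without overlap were found in 1.49% of those genes with AD/- lower and in 0.412% with AD/- higher, and in 0% did the adjusted p pass 0.05. With only the best 44492 summits of each library, which makes the lists equally long, the Traf1 counts overlapped between genotypes (difference −1). Nfkb1 had 17, 21 and 16 in AD/- and 20, 20 and 21 in null (18.0 ± 2.65 and 20.3 ± 0.58, SD, n = 3 each; exact permutation p = 0.40). Relb had 10, 10 and 9 against 8, 9 and 8 (exact permutation p = 0.20).

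The other windows differed by less than the spread between libraries. Nfkb2 had 11, 13 and 10 against 11, 10 and 10, Nfkbia 12, 15 and 10 against 13, 14 and 13, and Tnfaip3 9, 13 and 8 against 10, 10 and 10. Rel had 6, 6 and 4 against 5, 5 and 6, and Rela had 7 in every library. In 6 of the 8 windows, all but those of Rela and Traf1, the lowest AD/- count was that of library 3, which had the fewest summits. When it was left out, the difference, AD/- minus null, went from −2.33 to −1.33 at Nfkb1, from −1 to 0.17 at Nfkbia, from 0 to 0.67 at Rel, from 0 to 1 at Tnfaip3 and from 1 to 1.67 at Nfkb2. At Traf1 it was −1.33 with and without it. Without AD/- library 2, the longest list, it was −3.83 at Nfkb1, −2.33 at Nfkbia, −1.5 at Tnfaip3 and 0.17 at Nfkb2. Differences outside Traf1, Relb and Rela thus moved with which AD/- library was left out. Those of Traf1, Relb and Rela changed under other settings, which are given at the end.

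**Figure D4:**
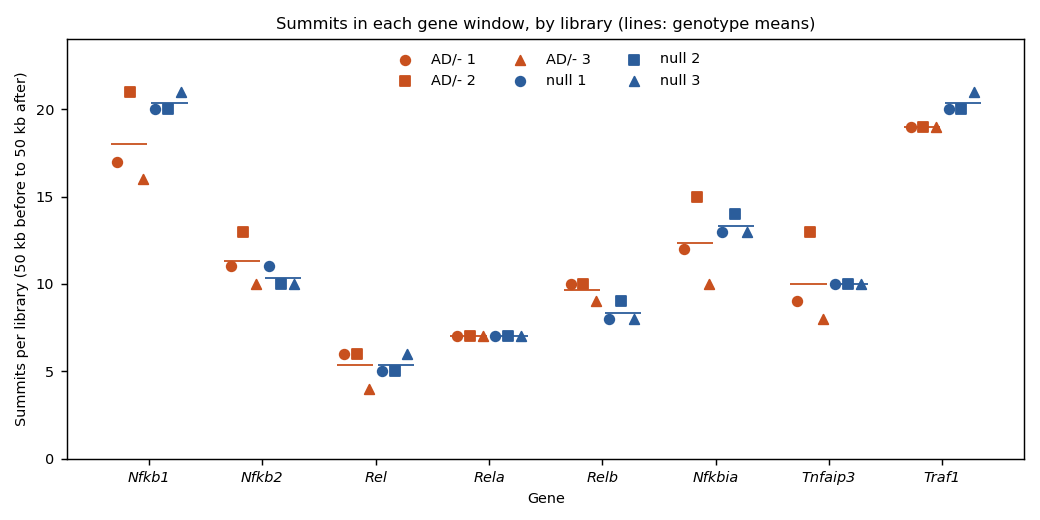
Summits per library (y axis) in the window of each gene (x axis), with points for the 3 AD/- and 3 null libraries and lines for the genotype means. Rela has 7 in every library, and Traf1 has 19 in each AD/- library and 20 to 21 in the null libraries.

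Regions seen in 3 of 3 libraries of a single genotype and in 0 of 3 of the other were found at 1 place among the 8 genes. Of the 119 regions, 1 (0.840%) was of the AD/- kind and 1 (0.840%) of the null kind, compared with 0.179% and 0.418% of all regions, and both lay between Phf19 and Traf1. The null summits were at 34927459, 34927531 and 34927504 on chromosome 2, at percentiles of 35.9, 39.9 and 51.0. The AD/- summits were at 34928106, 34928426 and 34928411, at percentiles of 36.6, 47.6 and 31.3. Each library therefore had a summit of middle rank in this stretch, and the summits of the genotypes were 575 to 967 bp apart.

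The AD/- summits were less tightly placed than the null ones. Those of null lay within 72 bp. AD/- libraries 2 and 3 were 15 bp apart, and library 1 lay 320 and 305 bp from them, on the side of the null summits. Measured to the nearest summit, the null region was 14219 bp and the AD/- region 13324 bp beyond the end of the Traf1 gene body. With extensions of 500 bp the pair merged into 1 region shared by all 6 libraries, and with 100 bp the AD/- summits fell into separate regions, so that 0 AD/- regions remained in either case. The null region was still called with 100 bp. When regions were dropped for having an opposite-genotype summit less than 2 kb away, 0 of either kind remained.

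**Figure D5:**
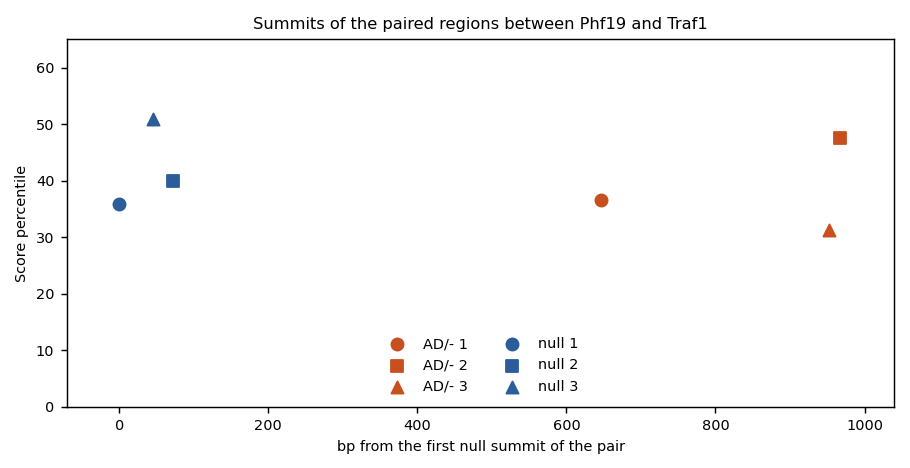
Score percentile (y axis) and distance in bp from the lowest-coordinate null summit (x axis) of the 6 summits between Phf19 and Traf1, by library. The 3 null summits lie within 72 bp and the AD/- summits 575 to 967 bp away from them.

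Percentiles of the 72 fully shared regions were compared last. AD/- values were all under the null values in 4 regions (5.56%) and all over them in 1 (1.39%), compared with 5.55% and 0.769% of all fully shared regions. With the best 44492 summits of each library, which makes the lists equally long, the shares over the 35125 regions found in all 6 equal lists were 4.57% below and 5.02% above. Among the 65 member regions found in all 6 of these equal lists, 7 (10.8%) were below and 5 (7.69%) above. The regions that kept their order in both were the inner region of Nfkb2, the one at the end of Clasrp beside Relb and one at 34920425 beside Traf1, all lower in AD/-, and one at 34989148 inside Hc in the Traf1 window, higher in AD/-. The region inside Clasrp lost its order with equal lists. At 34920425 the percentiles were 75.6, 77.9 and 71.5 in AD/- and 80.9, 79.9 and 81.0 in null. In the region inside Hc they were 59.2, 62.9 and 54.7 in AD/- and 46.9, 50.0 and 52.6 in null.

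The other genes of the pathway were examined at their starts, or at either gene end where no start was listed. Of 65 genes in 6 lists, 53 (81.5%) had a summit at a start in all 6 libraries, 9 in some and 3 in none, compared with 54.3%, 6.07% and 39.6% of all protein-coding genes. No gene of the lists had one in 3 libraries of one genotype and 0 of the other. All 10 kinases, among them Ikbkb, Chuk and Map3k14, and all 15 adaptors and ubiquitin ligases had a summit in all 6 libraries. The same held for 10 of 12 receptors and for 10 of 11 genes listed as other inhibitors. That list includes the IκB-family genes Bcl3, Nfkbid and Nfkbiz, whose role was not tested. The shares were lower for targets (6 of 11) and ligands (2 of 6).

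Start summits found in only some libraries were those of 9 genes, and none of the 9 separated the genotypes. Tnf, the cytokine that gives the receptor family its name, had a start summit in 2 AD/- and 2 null libraries. Tnfsf11, which encodes RANK ligand, had one in 2 AD/- and 3 null, and Cd40 and the inhibitor Tnip1 likewise in 2 and 3. The receptor gene Il1r1 had one in 3 AD/- and 2 null libraries, Csf2 in 1 and 1, and Tnfsf13b, Vcam1 and Ccl5 each in 1 AD/- and 0 null. Of the 9, Cd40, Vcam1 and Ccl5 were read at gene ends. In the windows of the 65 genes, Nfkbiz, which encodes a nuclear IκB protein, was the only one whose counts did not overlap, with 11, 10 and 8 summits in AD/- and 12 in each null library (exact permutation p = 0.10, 1 after adjustment over all genes). With 1.49% of all genes in that direction, 1 of 65 is near the background and is no result about the lists. The median difference between genotypes was −0.33 summits over the 65 genes and over all genes tested.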

How the data were processed

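ATAC-seq was measured in 3 p53 AD/- and 3 p53 -/- thymus libraries, numbered within a genotype in order of deposition. For each library the authors deposited a summit list, with a score read as the −log10 of the q-value because scores begin at 1.30 to 1.39. Per the submitters' processing notes, the tools were MACS2 2.1.2, Picard 2.9.0, Bowtie2 2.3.4.2 and Trim Galore 0.4.5 on GRCm38. Their roles and settings, a read shift, duplicate removal and masking are not given in the sources used here.

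Summits on chromosomes 1 to 19 and X were joined into regions with SciPy 1.17.1, NumPy 2.4.6 and pandas 2.3.3 in Python 3.11.15, and set against RefSeq genes (GRCm38.p6) by symbol. Start sites came from a RefSeq promoter table with 6 of the 8 genes. Where it held none, as for Nfkb1 and Relb, either annotated gene end was used. Tests were Fisher's exact test per region or gene and an exact permutation test, two-sided, over 20 relabellings, with Benjamini-Hochberg adjustment over all genes. The code was tested on simulated data. The text names all 8 genes and, for each, the region at the start, the highest region, regions specific to a genotype or without overlap, and the highest partly shared region. Other regions were named after their values were seen. Members and lists were chosen with earlier results of these data known.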

Additional observations from a re-analysis of the deposited data

How the results depend on the processing

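Alternatives were extensions of 100 and 500 bp, scores of at least 5, lists of equal length, windows of 20 and 100 kb, a looser call rule, a start distance of 500 bp and each library left out in turn. The number of regions was 74 with windows of 20 kb and 193 with 100 kb, and those found in every library numbered 42 and 110. Leaving out 1 library gave 111 to 119 regions and 72 to 78 found in every library that remained. AD/- regions numbered 0 with extensions of 100 bp, 0 with 500 bp and 0 when regions near (2 kb) an opposite-genotype summit were dropped. Null regions numbered 0 with 500 bp, 0 under that exclusion and 3 with 2 of 3 libraries against 0 of 3. Leaving out 1 library gave 1 to 2 AD/- and 1 to 4 null regions. The 2 AD/- regions, without null library 2, included the one at 19577590 near Relb. The 4 null regions, without AD/- library 2, included ones near Nfkb1 (135568723), Tnfaip3 (18983689) and Traf1 (34954551), where that library's summit had been the only one of AD/-. Without AD/- library 3 there were 2, as the Nfkb1 region at 135604808 joined, and without null library 1 or null library 2 there were also 2. With starts limited to 500 bp, 0 libraries had a summit at Nfkb1 or Relb and 2 at Nfkbia. Differences in window counts when 1 library was left out ran from −3.83 to −1.33 at Nfkb1, −2.33 to 0.17 at Nfkbia, −1.5 to 1 at Tnfaip3, 0.17 to 1.67 at Nfkb2, −0.33 to 0.67 at Rel, 1.17 to 1.67 at Relb and −1.5 to −1 at Traf1. With lists of equal length the difference was 0.67 at Relb, 1 at Rel and −1 at Traf1. With windows of 20 kb it was 0.33 at Relb. With windows of 100 kb it was −2 at Traf1 and 0.33 at Rela, and with scores of at least 5 it was −2 at Traf1. No setting gave a start specific to a genotype or an adjusted p under 0.05 for a window count, which this design cannot give. Unknown depth and 3 libraries a genotype limit what could be detected. No paired analysis was possible because the labels give no replicate numbers.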
